A study of Rattus norvegicus with 6 samples.

Results

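The retinal and aliphatic aldehyde dehydrogenases examined here are 9 rat genes, chosen by name: Aldh1a1, Aldh1a7, Aldh1a2, Aldh1b1, Aldh2, Aldh3a2, Aldh7a1, Aldh8a1 and Aldh9a1. Probes were matched to genes through their RefSeq accessions, and 8 of the 9 genes had at least 1 probe, out of 15645 named genes on the array. No probe was matched to Aldh1a7 through the gene table used here, so that gene was not analysed here. Liver RNA came from 6 male Sprague-Dawley (Crl:CD(SD)) rats, bought at 5 weeks of age, and each animal was measured on 1 single-colour oligonucleotide array. The TBBC group (n = 3) had received TBBC, a thiobis(tert-butyl-m-cresol) antioxidant in which sulfur joins a pair of alkylated cresols, at 300 mg/kg/day. Corn oil alone was given to the vehicle group (n = 3). Dosing lasted 28 days by the series text and 9 weeks by the treatment protocol.

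Aldehyde dehydrogenases oxidise aldehydes to carboxylic acids with NAD or NADP as the electron acceptor. In liver they clear acetaldehyde made from ethanol and aldehydes made from lipids, amino acids and amines, and they turn retinal into retinoic acid, the ligand of the retinoic acid receptors. Aldh1a1 is a cytosolic member of the retinal-oxidising subfamily. Rat liver is known to carry forms of this subfamily that respond to phenobarbital-type inducers of drug metabolism.

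Each array held 61537 non-control probes, whose 75th percentile of signal was between 616.1 and 638.2 on TBBC arrays and between 465.2 and 598.1 on vehicle arrays. Levels are given below as relative signal, which is the processed spot intensity divided by that percentile of the same array, and tests were made on its log2. Each group was hybridised on a slide of its own and each slide had its own scan time, so slide, scan and treatment cannot be told apart. The tissue label was borne out by hepatocyte markers: Alb, the plasma albumin, had a relative signal of 782.8 to 824.8 in TBBC livers and 915.2 to 1044 in vehicle livers. Ttr, a plasma carrier of thyroxine, was at 1100 to 1210 in TBBC livers and 1114 to 1238 in vehicle livers. None of the 8 hepatocyte markers tested passed (median log2 difference -0.01; 3 at an unadjusted limma p under 0.05, where 23% of all features were). Those 3, given after their values were seen, were all lower in TBBC livers with no overlap of the groups: Alb by a log2 difference of -0.30, Serpina1, the main plasma protease inhibitor, by -0.40, and Apoa1, the main protein of high-density lipoprotein, by -0.9996 ± 0.19 (0.5001-fold; limma adjusted p = 0.05004, just above the threshold). Of all features, 18.8% had every TBBC array below every vehicle array. Apoa1 had a relative signal of 135.1, 124.2 and 195.5 in TBBC livers, against 287.4, 330.7 and 275.8 in vehicle livers. Since whole liver was measured, fewer cells of a type and less RNA per cell cannot be told apart.

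The question is which of these enzymes differ in RNA level between TBBC and vehicle livers after repeated dosing. Of the 8 genes with probes, 7 were bright enough to test, and 1 of them, Aldh1a1, rose. None fell, and 6 did not pass the threshold of 0.05 on limma's p adjusted over 29326 features. Across all tested features 3.08% were called, 1.68% higher and 1.4% lower. The median log2 difference of the 7 members was 0.10, beside -0.06 for all features. Aldh1a1 was the single member with an unadjusted limma p under 0.05, where 23% of all features were. It was also the single one whose groups did not overlap in either direction. Of all features, 12.3% had every TBBC array above every vehicle array and 18.8% had every one below.

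**Figure D1:**
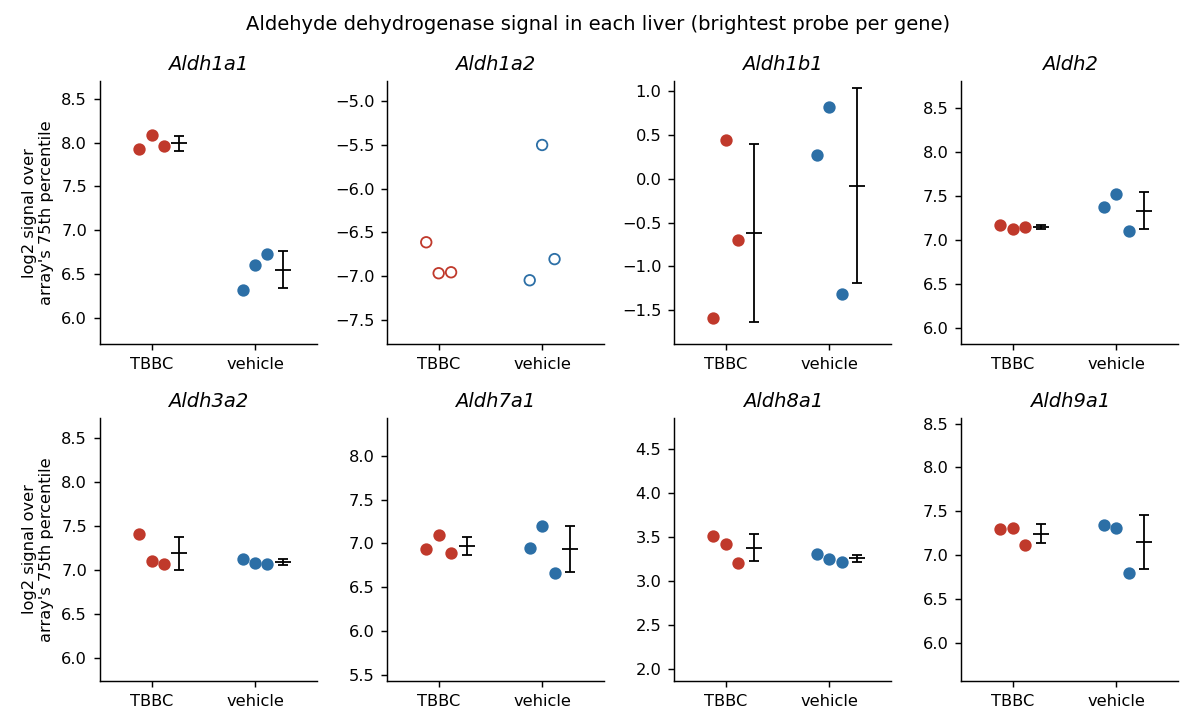
Points are single livers and show log2 of the signal over the array's 75th percentile for the brightest probe of each gene, with TBBC in red on the left and vehicle in blue on the right of each panel; bars are mean and SD (n = 3 per group), and every panel spans the same height. The Aldh1a1 groups stand apart, the groups of the other tested members overlap, and the open circles of Aldh1a2 mark spots not well above background.

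Aldh1a1, which makes retinoic acid from retinal in the cytosol and also oxidises aldehydes of lipid origin, had a relative signal of 243.0, 271.8 and 249.2 in TBBC livers, against 79.7, 96.9 and 106.2 in vehicle livers. Every TBBC liver was above every vehicle liver. On the log2 scale the mean was 7.99 ± 0.08 in TBBC livers and 6.55 ± 0.21 in vehicle livers (SD, n = 3 each). The log2 difference was 1.44 ± 0.14 (moderated SE; 95% interval 1.11 to 1.78; limma adjusted p = 0.00916), which is 2.72-fold. Measured from the all-feature median it was 1.50. By size of rise it ranked 125 among 11235 named genes tested.

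A second, dimmer Aldh1a1 probe gave the same direction. Its relative signal was 69.4, 80.6 and 71.5 in TBBC livers, against 19.3, 21.1 and 27.4 in vehicle livers. This probe's log2 difference was 1.72 ± 0.16 (limma adjusted p = 0.0088 over all probes). TBBC replicate 2 was the highest array on both probes. Without that array the difference of the brightest probe was 1.39 ± 0.16 and missed the threshold (limma adjusted p = 0.0536), in a fit of the other arrays; without TBBC replicate 1 or 3 it was 1.47 or 1.46. Aldh1a1 and Aldh1a7 are close relatives in sequence, and probe sequences were not used here, so RNA of Aldh1a7 may be part of what the Aldh1a1 probes bound.

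**Figure D2:**
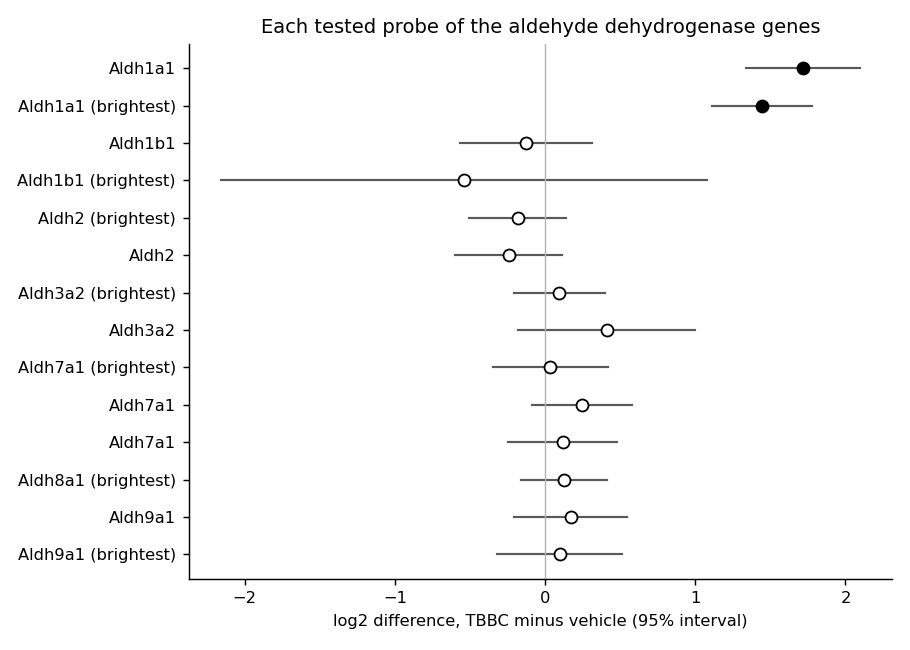
Each row is 1 of the 14 tested probes, with its log2 difference (TBBC minus vehicle) and the 95% interval of the limma fit over all probes; filled points passed an adjusted p of 0.05. Both Aldh1a1 probes lie to the right, at 1.72 and 1.44, and the interval of every other probe includes 0.

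The sequence upstream of Aldh1a1 is shown because this gene was the one that rose, and that of Aldh9a1 because it holds the most motif matches and its RNA did not pass the test. Both are the 250 bases before the transcript start in the RefSeq promoter table of build GRCr8, on the plus strand, at chr1:227537370-227537619 for Aldh1a1 and chr13:82038429-82038678 for Aldh9a1. Capitals mark GCGTG, the core of the dioxin response element, on either strand.
Aldh1a1 promoter: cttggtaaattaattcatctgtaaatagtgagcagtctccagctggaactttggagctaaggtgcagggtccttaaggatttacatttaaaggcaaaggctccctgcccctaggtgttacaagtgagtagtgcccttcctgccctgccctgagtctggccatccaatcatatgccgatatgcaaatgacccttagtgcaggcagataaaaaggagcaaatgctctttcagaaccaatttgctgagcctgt
Aldh9a1 promoter: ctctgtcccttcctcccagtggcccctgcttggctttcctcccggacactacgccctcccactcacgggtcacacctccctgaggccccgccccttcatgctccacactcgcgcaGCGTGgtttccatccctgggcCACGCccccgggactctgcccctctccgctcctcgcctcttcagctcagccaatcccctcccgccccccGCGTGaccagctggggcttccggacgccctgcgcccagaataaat

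Promoter windows of 300 bases (250 before and 50 after the start) were found for 7 of the 9 genes, all but Aldh1a7 and Aldh2. Both strands were searched for the nuclear receptor hexamer AGGTCA, for its direct repeats with a gap of 1, 4 or 5 bases and up to 1 mismatch in each copy, for TGACNNNGC, the antioxidant response element core, and for GCGTG. The Aldh1a1 window held none of these, and neither did those of Aldh1b1 and Aldh8a1. GCGTG was in 4 of the 7 windows (Aldh1a2, Aldh3a2, Aldh7a1 and Aldh9a1) and in 29.7% of all 33469 promoter windows. TGACNNNGC was in 2 of 7 (Aldh1a2 and Aldh9a1), where 12.1% of all windows hold it. AGGTCA, and a repeat with a gap of 4 bases that overlaps it and TGACNNNGC, were in the Aldh9a1 window just after the start, where 16.2% and 1.74% of all windows hold them. No member window held a repeat with a gap of 1 or 5 bases, which 2.26% and 1.64% of all windows hold. The 250 bases upstream of Aldh1a1 were 46.4% G or C and those of Aldh8a1 48.4%, below the median of 51.2% over all promoters, whereas the other 5 lay between 57.6% (Aldh1b1) and 77.2% (Aldh1a2). A match, or none, describes the letters of the window and nothing about the binding of a factor.

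Aldh1a2, the retinal-specific enzyme that supplies retinoic acid in embryonic tissues, was not well above background on any array. Its single probe had a relative signal of 0.0102, 0.00800 and 0.00807 in TBBC livers, against 0.00757, 0.0220 and 0.00895 in vehicle livers. All of these lay below the dimmest probe called well above background on its array, which was 0.0243 to 0.034 on TBBC arrays and 0.029 to 0.0345 on vehicle arrays. No fold is given for it.

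The mitochondrial acetaldehyde oxidisers did not pass. Aldh2, the main enzyme of acetaldehyde removal in liver, had a relative signal of 144.4, 140.1 and 141.6 in TBBC livers, against 165.8, 183.7 and 137.4 in vehicle livers. The TBBC livers lay within the range of the vehicle livers, which were spread more widely (SD of log2 signal 0.02 in TBBC livers and 0.21 in vehicle livers). The log2 difference was -0.18 ± 0.14 (limma adjusted p = 0.448), and its 95% interval runs from 0.704-fold to 1.10-fold. With arrays scaled on spike-in controls, where the median log2 difference of all features was 0.15 in place of -0.06, the sign of Aldh2 turned (log2 difference 0.03), while relative to that median it was -0.12 in both. The second Aldh2 probe gave -0.24.

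Aldh1b1, a mitochondrial enzyme that also takes acetaldehyde and retinal, was the most variable member. Its brightest probe had a relative signal of 0.333, 1.35 and 0.617 in TBBC livers, against 1.21, 1.76 and 0.402 in vehicle livers. Both groups held high and low livers and overlapped over most of their range. The log2 difference was -0.54 ± 0.68 (limma adjusted p = 0.657), with a 95% interval from 0.222-fold to 2.13-fold, so neither a large rise nor a large fall can be told from no change. Leaving out 1 array moved it widely, to -0.05 without TBBC replicate 1, -0.09 without vehicle replicate 2, -1.065 without TBBC replicate 2 and -1.16 without vehicle replicate 3. The second probe varied far less, with a range over the 6 arrays of 0.67 against 2.40 for the brightest probe on the log2 scale, and gave -0.13 ± 0.18.

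Aldh3a2, the fatty aldehyde dehydrogenase of the endoplasmic reticulum and peroxisomes, had a relative signal of 169.5, 136.9 and 133.8 in TBBC livers, against 139.9, 135.3 and 134.3 in vehicle livers. TBBC replicate 1 was the high array and the other two lay beside the vehicle livers. The log2 difference was 0.10 ± 0.13 (limma adjusted p = 0.676; 0.864-fold to 1.32-fold), and without TBBC replicate 1 it was -0.01. A dimmer probe gave 0.41 ± 0.25 and did not pass.

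The members that act in amino acid and carnitine metabolism also did not pass. Aldh7a1, also called antiquitin, oxidises the aminoadipate semialdehyde of lysine breakdown. Its relative signal was 122.0, 136.4 and 118.5 in TBBC livers, against 123.1, 146.8 and 101.7 in vehicle livers, and the TBBC values lay inside the vehicle range. It differed by 0.03 ± 0.16 on the log2 scale (limma adjusted p = 0.914; 0.785-fold to 1.34-fold), with 0.12 and 0.25 on its other two probes.

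Aldh8a1 oxidises aminomuconate semialdehyde in the kynurenine pathway of tryptophan breakdown, as known from the human enzyme. It had a relative signal of 11.4, 10.7 and 9.22 in TBBC livers, against 9.85, 9.48 and 9.31 in vehicle livers. TBBC replicates 1 and 2 were above all vehicle livers and TBBC replicate 3 was below them. TBBC minus vehicle was 0.12 ± 0.12 on the log2 scale (limma adjusted p = 0.561; 0.892-fold to 1.33-fold).

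Aldh9a1 oxidises trimethylaminobutyraldehyde on the way to carnitine. It had a relative signal of 157.8, 158.8 and 138.9 in TBBC livers, against 162.1, 158.3 and 110.8 in vehicle livers. Vehicle replicate 3 was the low array and the groups overlapped. The log2 difference was 0.10 ± 0.17 (limma adjusted p = 0.764; 0.800-fold to 1.43-fold), and without vehicle replicate 3 it was -0.08.

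**Figure D3:**
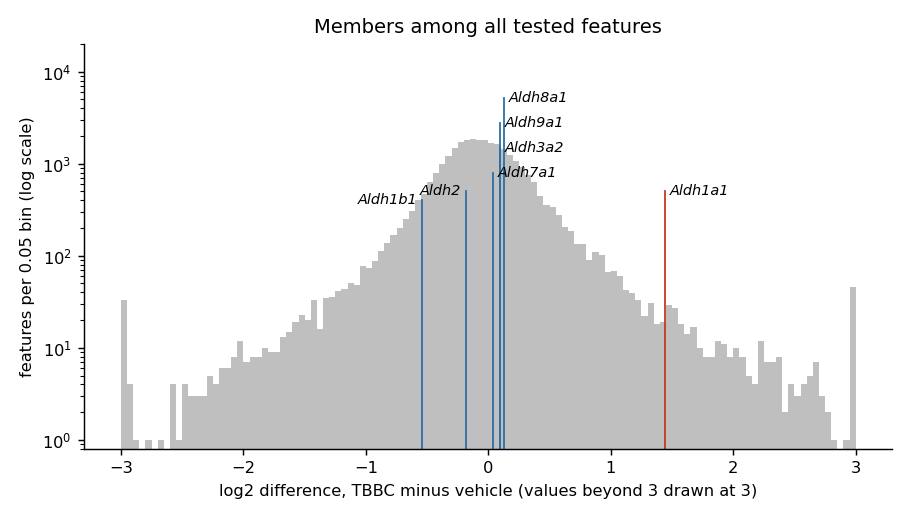
Grey bars count all 29326 tested features by log2 difference (TBBC minus vehicle) on a logarithmic count axis, and vertical lines mark the members, red for Aldh1a1 and blue for those that did not pass; line height only separates the labels. Aldh1a1 lies at 1.44 in the right tail and the other 6 members lie between -0.54 and 0.12.

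The 95% interval of Aldh1a1 (1.11 to 1.78) began just above the highest upper limit among the other tested members (1.09, for Aldh1b1). The upper limits of the other 5 were at most 0.52.

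**Figure D4:**
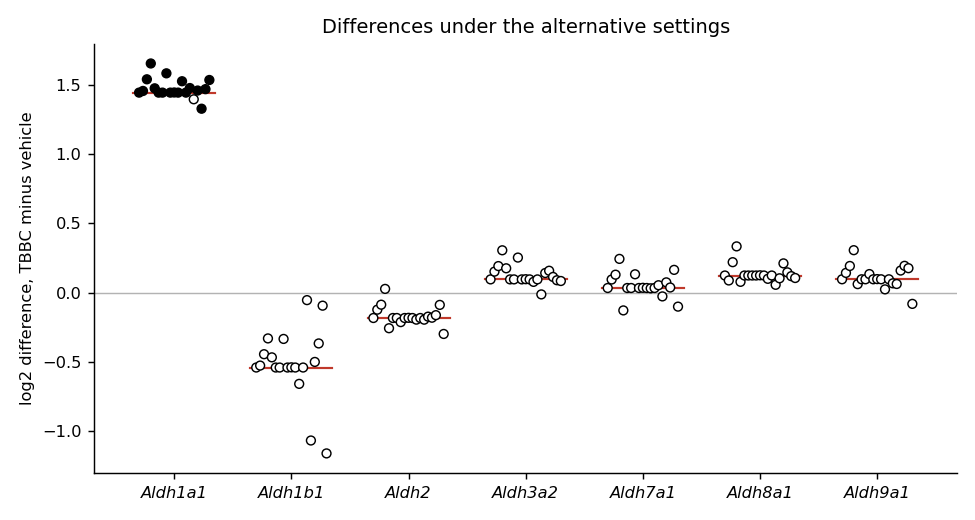
Each point is the log2 difference (TBBC minus vehicle) of a member as reported or under 1 of 18 alternative settings; filled points passed an adjusted p of 0.05 and the red line marks the reported value. Aldh1a1 stays between 1.33 and 1.65, and no point of the other members is filled.

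Genes whose levels followed Aldh1a1 most closely over the 6 arrays were Cyp2c24, a cytochrome P450 (Pearson r = 0.996), Abcc3, an exporter of glucuronides (r = 0.995), and Nceh1, a cholesterol ester hydrolase (r = 0.994). The 6 arrays fall into the 2 treatment groups, so r mainly reflects the difference between them, and 537 of 11234 named genes (4.78%) had r over 0.9. These genes also differed between the groups. Cyp2c24 had a relative signal of 27.4, 74.7 and 72.0 in TBBC livers, against 0.0653, 0.228 and 0.499 in vehicle livers. Its call was lost without TBBC replicate 2. Abcc3 was at 5.01, 5.91 and 5.82 in TBBC livers, against 0.132, 0.202 and 0.215 in vehicle livers. Nceh1 was at 3.79, 4.32 and 3.82 in TBBC livers, against 1.56, 1.92 and 2.22 in vehicle livers (2.11-fold; limma adjusted p = 0.0279), and its call was lost in 8 of 18 alternatives, among them leaving out any array but vehicle replicate 3. Cyp2b1, the classical phenobarbital-inducible cytochrome, rose by 4.63 ± 0.22 on the log2 scale on the same arrays (limma adjusted p = 0.00116).

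Of the aldehyde dehydrogenase genes outside the set, 9 were tested. Of these 1 rose, 2 fell and the other 6 missed the threshold, with a median log2 difference of 0.03. Among all features 1.68% were called higher and 1.4% lower. Aldh1l1, the cytosolic formyltetrahydrofolate dehydrogenase of folate metabolism, had a relative signal of 89.1, 120.5 and 92.5 in TBBC livers, against 55.2, 54.2 and 39.1 in vehicle livers. It rose 2.04-fold (log2 difference 1.03 ± 0.19, limma adjusted p = 0.0451). Aldh1l2, its mitochondrial counterpart, was at 13.6, 10.3 and 12.5 in TBBC livers, against 25.7, 19.7 and 21.0 in vehicle livers, a log2 difference of -0.87 ± 0.16 (limma adjusted p = 0.0444). The cytosolic and the mitochondrial form moved in opposite directions. Aldh18a1, which makes pyrroline carboxylate for proline synthesis, was at 0.125, 0.119 and 0.117 in TBBC livers, against 0.245, 0.217 and 0.289 in vehicle livers. Its log2 difference was -1.05 ± 0.13 (limma adjusted p = 0.0209), and a dimmer probe, well above background on 2 of 3 TBBC arrays and all 3 vehicle arrays, gave -2.79, a value that rests in part on a spot not well above background. These calls were close to the threshold: of 18 alternatives, each of which kept the direction, 8 lost the call of Aldh1l1, 10 that of Aldh1l2 and 7 that of Aldh18a1. Leaving out any 1 of the 6 arrays was enough for Aldh1l1 and Aldh1l2, and any TBBC array or vehicle replicate 1 for Aldh18a1, whose mean over both probes, the dim one included, was -1.92.

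The lists of neighbouring pathway genes are read beside the 3.08% of all features that were called. Their counts at an unadjusted limma p under 0.05 are read beside 23% of all features. Of 19 tested genes of retinol and retinal supply, storage and binding, 1 rose and none fell (median -0.03; 2 at an unadjusted limma p under 0.05). The riser, the retinol dehydrogenase Rdh14, was at 1.12, 1.19 and 1.12 in TBBC livers, against 0.731, 0.714 and 0.835 in vehicle livers (limma adjusted p = 0.0479), and 9 of 18 alternatives lost its call, among them leaving out any 1 array. Of 12 genes of retinoic acid binding, breakdown and its receptors, none passed, and 3 had an unadjusted limma p under 0.05 (median -0.12). Rxrg, a retinoid X receptor, differed by 0.00 ± 0.15 and Fabp5, a fatty acid and retinoic acid carrier, by -1.05 ± 0.68. Cyp26a1, the retinoic acid hydroxylase that retinoic acid itself induces, was singled out here after its values were seen. It had the highest difference of that list, 1.99 ± 0.62, and did not pass (limma adjusted p = 0.134). Its relative signal was 0.719, 0.435 and 2.54 in TBBC livers, against 0.185, 0.312 and 0.219 in vehicle livers. TBBC replicate 3 was far above the other arrays.

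Of 20 tested makers and users of aldehydes, among them the alcohol dehydrogenases, 1 rose and none fell (median 0.24; 6 at an unadjusted limma p under 0.05). The riser was Acss2, which turns acetate into acetyl-CoA, at 3.29, 5.20 and 5.45 in TBBC livers, against 1.65, 1.58 and 1.42 in vehicle livers (2.93-fold, limma adjusted p = 0.0236). Its call was lost in 7 of 18 alternatives, among them leaving out any array but TBBC replicate 1. None of 13 genes of fatty aldehyde and long-chain lipid supply passed (median 0.01). Of them 7 had an unadjusted limma p under 0.05, a larger share than the 23% of all features. These went in both directions, and are named here after their values were seen. Cyp4f5, Sgpl1, Agmo, Cyp4a1 and Cyp4f4 were higher in TBBC livers, and Cyp4f1 and Cyp4f6 were lower. The lowest limma adjusted p among them was 0.0523, for Sgpl1. The fatty acid hydroxylases Cyp4a2 and Cyp4a3 differed by -0.29 ± 0.21 and 0.31 ± 0.20.

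None of 16 genes of lysine, choline and carnitine metabolism passed (median -0.04; 6 at an unadjusted limma p under 0.05). Bhmt, the betaine methyltransferase, differed by 0.25 ± 0.16 and Gcdh, of lysine breakdown, by -0.15 ± 0.11. None of 9 kynurenine pathway genes passed (median 0.19; 3 at an unadjusted limma p under 0.05). Tdo2, which opens the tryptophan ring, had a log2 difference of 0.99 ± 0.35 (limma adjusted p = 0.166), with TBBC replicate 2 far above the other arrays at a relative signal of 186.5. Kynu, the kynureninase, differed by -0.58 ± 0.29.

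**Figure D5:**
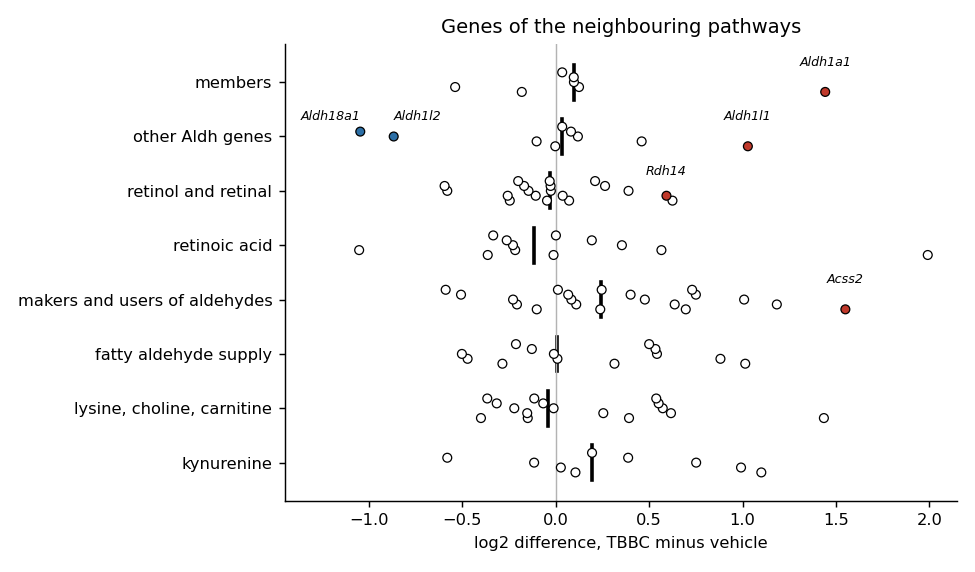
Each point is a tested gene placed by its log2 difference (TBBC minus vehicle), by list; red points passed as higher, blue as lower, open points did not pass, and black bars are list medians. Between 0 and 3 genes of each list passed, and the medians lie between -0.12 and 0.24.

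Markers of other liver cell types gave these values beside the rise of Aldh1a1. Their counts are read beside the 1.68% of all features called higher and the 1.4% called lower. An unadjusted limma p under 0.05 was found for 23% of all features. Of 5 tested cholangiocyte markers, 1 rose, Epcam, with a relative signal of 2.87, 2.35 and 3.63 in TBBC livers, against 0.841, 0.968 and 0.676 in vehicle livers (limma adjusted p = 0.0147; call lost without vehicle replicate 1 and with the replicate block). The summed relative signal of that list was 2.77 to 4.15 in TBBC livers and 1.13 to 1.30 in vehicle livers, with Krt19 at 0.44 ± 0.39 and Krt7 at -0.33 ± 0.24 (log2 differences that did not pass). Most of that sum was Epcam: the other 4 markers summed to 0.419 to 0.516 in TBBC livers and 0.287 to 0.626 in vehicle livers, which overlap. Of 11 tested stellate cell markers, 1 fell, Pdgfrb, by 0.73 ± 0.14 on the log2 scale (call lost in 11 of 18 alternatives, among them leaving out any 1 array), and the sums were 58.7 to 115.8 in TBBC livers and 102.8 to 136.2 in vehicle livers. None of 3 mesothelial, 8 macrophage and 4 endothelial markers passed, and their unadjusted limma p was above 0.05 for each. The summed signal was 0.217 to 1.59 in TBBC livers and 1.02 to 1.30 in vehicle livers for mesothelial markers, 94.2 to 205.1 in TBBC livers and 91.5 to 196.8 in vehicle livers for macrophage markers, and 35.8 to 40.5 in TBBC livers and 27.5 to 49.9 in vehicle livers for endothelial markers. The part of these cell types in the Aldh1a1 difference was not tested.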

How the data were processed

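The deposited scanner files give linear spot intensity, extracted by the authors with Agilent Feature Extraction 10.7.1.1 per the file headers (10.7 per the submitters' processing notes). Background had been subtracted in the processed intensity, per the file headers. The deposited value table holds the same processed intensity times 1 constant per array, set so that the 75th percentile is about 1, as found by comparison with the scanner values; its column medians were 0.0977, 0.0972 and 0.0974 for TBBC replicates 1 to 3 and 0.1012, 0.1077 and 0.1033 for vehicle replicates 1 to 3. Its scale is linear and no centring of genes was found.

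Control spots and 25 probes with an outlier flag were left out. Each processed intensity was divided by its array's 75th percentile and log2 taken. A probe was kept if every array of 1 group or both called it well above background (37222 kept), and no member probe was saturated. Unversioned RefSeq accessions were looked up in a GRCr8 gene table, which named 28206 probes; the array design is of build rn4 per the file headers, so no gene coordinates are given. The brightest kept probe stood for a gene, and unnamed probes stood alone (29326 features). The comparison of TBBC with vehicle used limma 3.58.1 under R 4.3.3 (no covariate, two-sided, Benjamini-Hochberg over all features, threshold 0.05), checked on simulated data. Animals are separate per the labels, and p-values cover the spread between them; the 3 arrays per group limit the precision. Intervals are 95% intervals of limma.

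The members, the gene lists, the motifs and the rule for named genes (all members; of each list up to 3 called genes by size, or else the 2 brightest; the 3 genes most correlated with each called member; Cyp2b1) were chosen with earlier results of these data known. Some genes, Lrat and Ttr among them, stand in 2 lists each. Alternatives were other scalings, background correction, probe filters, probe summaries, limma options, the replicate number as a block, and leaving out each array.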

Additional observations from a re-analysis of the deposited data

How the results depend on the processing

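Aldh1a1 kept its direction in all 18 alternatives and passed in 17, with log2 differences of 1.33 to 1.65 and limma adjusted p of 0.00224 to 0.0536; the exception was the fit without TBBC replicate 2 (1.39). Leaving out 1 array gave 1.33 to 1.53. None of the other 6 members passed in any alternative. Signs turned for Aldh2 with spike-in scaling (0.0275) and for Aldh7a1 with normexp on median signals (-0.13). They also turned on leaving out 1 array, which gave -0.0121 to 0.158 for Aldh3a2, -0.10 to 0.165 for Aldh7a1 and -0.0804 to 0.194 for Aldh9a1. The same omissions gave -1.16 to -0.05 for Aldh1b1. The cause was not tested. The number of features called was 902, against 1589 with normexp, 194 with no filter on dim probes, 211 with the replicate block and 104 to 365 on leaving out 1 array, where fewer arrays were fitted. Of the calls, 54.5% were higher, against 70.9% with median centring and 80.7% with spike-in scaling. Correlations of deviations between same-numbered animals were 0.00351, -0.0216 and 0.144, against -0.0998 to 0.092 between animals of different numbers. The value for replicate 3 was the highest of all, and 1 of 3 TBBC arrays correlated best with its own number. With 3 arrays per group these values cannot settle whether the numbers pair the animals. The replicate block changed no member's call (Aldh1a1 limma adjusted p = 0.0379). Alternatives for genes outside the set were added after seeing the data. Aldh1a2 was too dim to test. The spread of the brightest Aldh1b1 probe leaves its interval wide, while the second Aldh1b1 probe had a 95% interval of -0.568 to 0.314 (log2).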
